A study of Drosophila melanogaster with 9 samples.

Results

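The mRNAs of fly heads were compared between 2 ribosomal fractions, polysomes and 80S monosomes. The members are the nuclear protein-coding genes, taken by their annotated biotype, which were 13907 of the 23932 features in the gene table. Of these, 10210 passed the filter on low counts and were tested, and 3697 did not. All flies were wild type Dahomey, an outbred laboratory stock, without treatment and 0 to 5 days old, and the heads of many flies were pooled for each gradient. The whole head holds brain, eyes, muscle and fat, so that a difference can come from any of these cells. Cycloheximide, which holds ribosomes on the mRNA, was in the lysis buffer and in the sucrose gradient of every sample. Sucrose gradient fractions with single ribosomes were combined as 80S monosomes, and those with several ribosomes on an mRNA as polysomes. There were 3 replicates of each, and 3 of total RNA, for which a portion of lysate was kept.

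A ribosome that has assembled on an mRNA sediments at 80S when it is alone there. As more ribosomes load on the same mRNA the complex becomes heavier and enters the polysome fractions. The place of an mRNA therefore depends on how often initiation occurs, how fast the ribosomes move and how much coding sequence there is to hold them. Values are given as CPM, the usual read counts scaled to a common library total, with TMM factors computed within nuclear protein-coding genes. They are shares of a fraction and not amounts per head, and in such bulk samples fewer cells of a type and less RNA per cell cannot be told apart.

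The 6 libraries held between 13555484 and 44096558 counts, of which 85.4% to 93.6% fell on nuclear protein-coding genes. The head markers of all 5 expected cell types were detected in every library. Markers of neurons (elav, nSyb, brp) summed to 2421 to 2592 CPM of all counts in 80S monosomes and to 3354 to 3535 CPM in polysomes. The sums of the 3 glial and 4 fat body markers overlapped between the fractions, whereas those of the photoreceptor markers (ninaE, trp, ninaC) were 11449 to 12593 CPM in 80S monosomes and 9008 to 11392 in polysomes. The photoreceptor sum is made up mostly of ninaE, which was lower in polysomes, while trp was higher there. It gives no measure of the photoreceptor content. Testis and gut markers had at most 8 counts in a library, as had the egg shell genes Cp36 and Vm26Aa, whereas the oocyte genes osk and nanos were detected. The part of cell type composition in the results was not tested.

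The quasi-likelihood test of edgeR, paired by replicate number and with an adjusted p below 0.01, found 1295 genes (12.7% of those tested) higher in polysomes and 1305 (12.8%) higher in 80S monosomes. The direction was the same in all 3 pairs for 1291 and 1290 of them, and there was no overlap between the fractions' libraries for 1020 and 927. The ends were not alike in size. More than 2-fold differences were seen for 272 genes toward polysomes and for 68 toward 80S monosomes, and the called genes had a median of 0.53 toward polysomes and of -0.41 toward 80S monosomes on the log2 scale. Over all genes tested the median was -0.05, with 5% of genes under -0.57 and 5% over 0.73. DESeq2 with the same block, which also scales differently, placed 1330 genes higher in polysomes and 851 higher in 80S monosomes, so that 80S monosomes had 39.0% of the calls in place of 50.2%. Without replicate 2 the counts were 983 and 704, and without replicate 3 they were 931 and 639. Without the replicate block they were 318 and 63. At an unadjusted p under 0.05 in the paired fit they were 1874 and 2465.

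**Figure D1:**
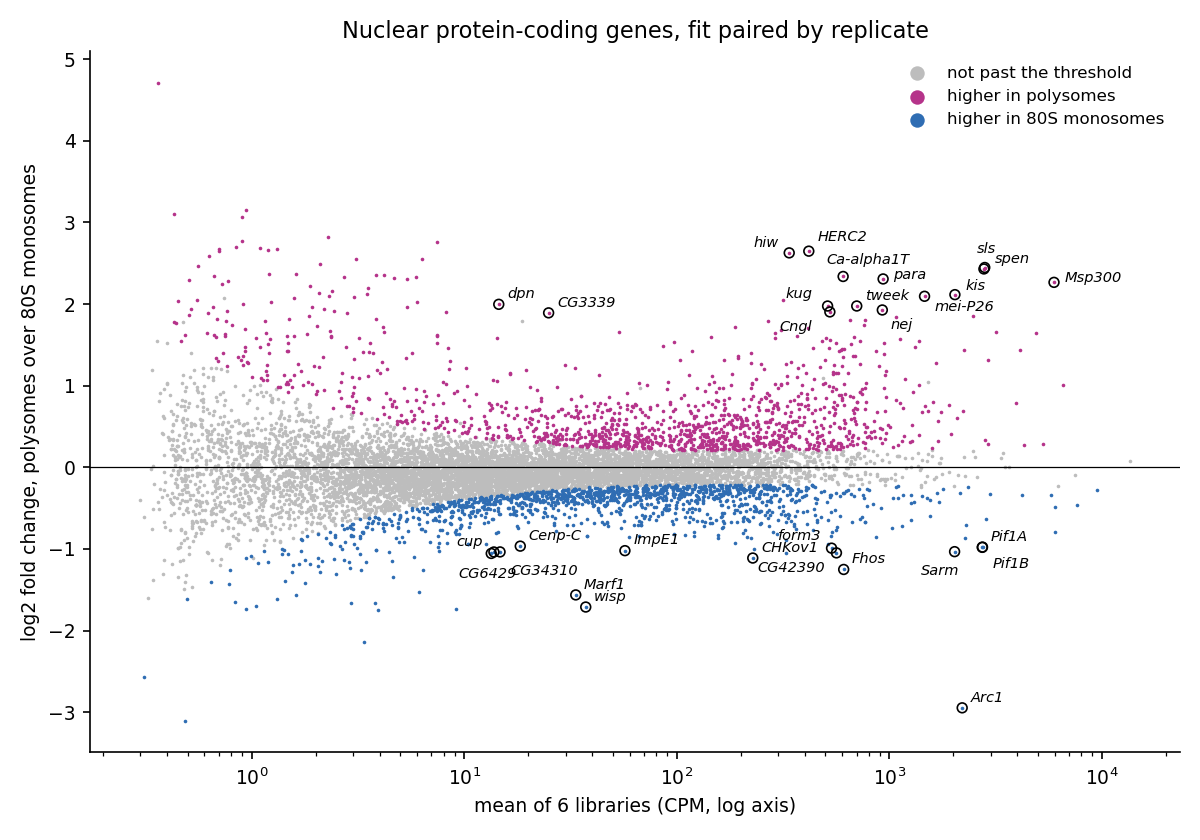
Each point is 1 of the 10210 nuclear protein-coding genes tested, with its mean over 6 libraries in CPM (log axis) and its log2 fold change of polysomes over 80S monosomes. Purple and blue points passed an adjusted p of 0.01, and circles mark the 30 named genes, from HERC2 at 2.65 to Arc1 at -2.95.

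The longest genes were mostly higher in polysomes, while coding length did not separate the ends in the same way at low levels. Of the 302 tested genes with a longest annotated coding sequence of 2000 codons or more, 216 were higher in polysomes and 15 in 80S monosomes, and the median log2 fold change of the 302 was 0.50. Of the 42 genes with 4000 codons or more, 38 were higher in polysomes and 0 in 80S monosomes, with a median of 1.46. This 0 in the edgeR test was also 0 at an unadjusted p under 0.05 and 0 with DESeq2. Among genes of 200 to under 1000 codons, 564 of 7067 were higher in polysomes and 828 in 80S monosomes, and among those of 1000 to under 2000 codons, 310 and 230 of 1185 (medians -0.07 and 0.01). Genes under 200 codons were divided, with 12.4% of 1656 higher in polysomes and 14.0% in 80S monosomes (median -0.06). Of the 124 polysome genes with a more than 2-fold difference and at least 10 CPM, 72 had 2000 codons or more, against 1 of the 13 such genes of 80S monosomes. The 148 other polysome genes with a more than 2-fold difference, under 10 CPM, were shorter, with a median of 279.5 codons against 2356.5. The 55 such genes of 80S monosomes under 10 CPM had a longer median of 503 codons.

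**Figure D2:**
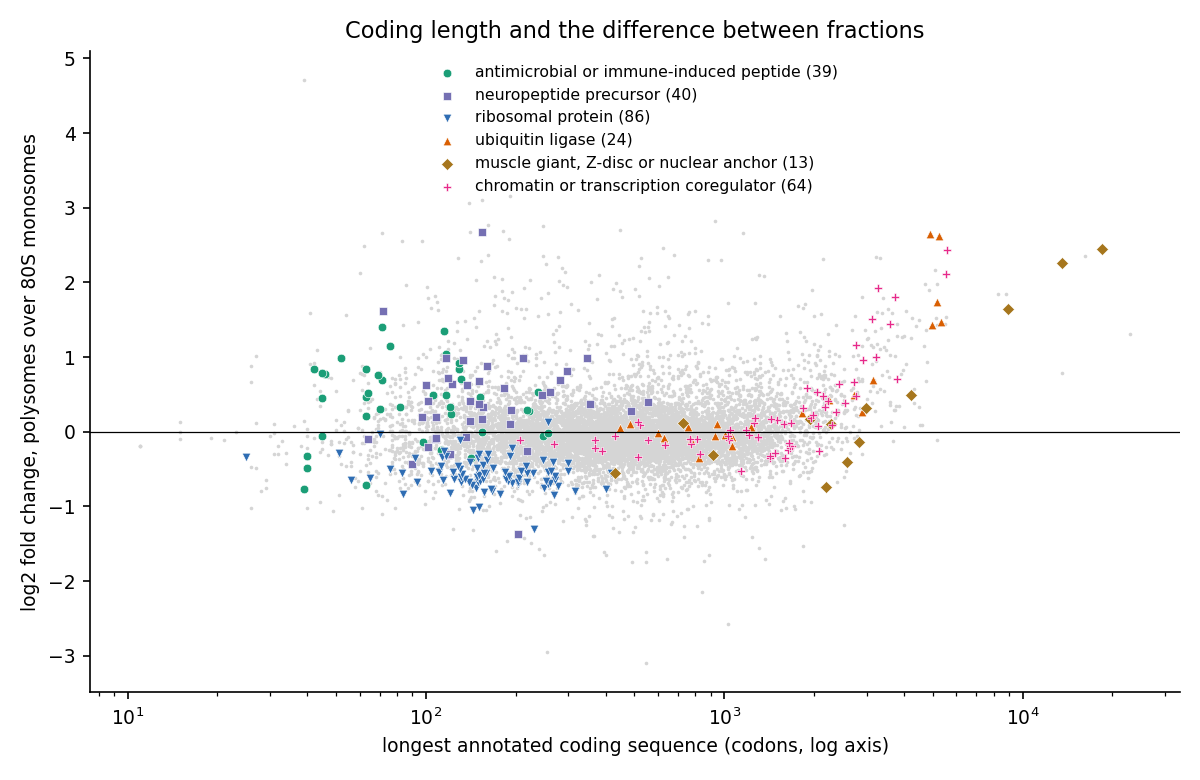
Log2 fold change of polysomes over 80S monosomes against the longest annotated coding sequence in codons (log axis) for the genes tested (grey), with 6 gene lists in colour. The listed ubiquitin ligases, chromatin regulators and muscle proteins above a log2 fold change of 1 all have over 2000 codons. The immune peptides and neuropeptide precursors are short and lie mostly above 0 (medians 0.46 and 0.38), and the ribosomal protein genes mostly below (median -0.57).

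Leaving out the genes of hand-written ribosomal protein, translation factor and synaptic lists, the polysome end above 10 CPM was led by HERC2, hiw, sls, spen, Ca-alpha1T, para, Msp300, kis, mei-P26, dpn, tweek, kug, nej, Cngl and CG3339, with log2 fold changes from 2.65 down to 1.89. In all 15 the polysome libraries lay above those of 80S monosomes, and total RNA lay between the fractions. The genes were picked for large differences of the same direction in all 3 pairs. Their separate libraries follow in part from that choice. All but dpn (435 codons) had coding sequences of at least 1310 codons. All 15 calls were kept under each of the alternative settings, the fit without the replicate block included. HERC2 encodes a ubiquitin ligase of the HECT class (chromosome X, 20394395 to 20412247 of BDGP6.54, 4912 codons). It had 117, 108.8 and 108.7 CPM in 80S monosomes and 976, 540.5 and 653 CPM in polysomes (replicates 1, 2 and 3), a difference of 2.65 on the log2 scale (SE 0.12, adjusted p = 6.54e-10). SE is a standard error derived from the test, as the absolute log2 fold change over the square root of its F statistic. The fractions were far apart, and the spread was wider in polysomes. The ubiquitin ligase gene hiw, which restrains the growth of motor synapses (chromosome X, 15010137 to 15063429), had 106, 87.7 and 84.2 CPM in 80S monosomes and 748, 455 and 545 CPM in polysomes, a difference of 2.63 on the log2 scale (SE 0.08, adjusted p = 9.47e-42). Replicate 1 was highest and replicate 2 lowest in polysomes for both genes.

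The transcription regulators among them work in different ways, and the TRIM protein gene mei-P26 is described beside them. spen encodes an RNA-binding corepressor (chromosome 2L, 159032 to 203397, 5560 codons), and its levels were 981, 758 and 844 CPM in 80S monosomes and 5713, 3555 and 4839 CPM in polysomes, a difference of 2.43 on the log2 scale (SE 0.08, adjusted p = 1.03e-41). The chromatin remodeller gene kis (chromosome 2L, 210735 to 250823) had 832, 646 and 773 CPM and 4153, 2399.7 and 3388 CPM in the same order, a difference of 2.12 on the log2 scale (SE 0.08, adjusted p = 3.89e-37). nej encodes the histone acetyltransferase CBP, and its levels were 428, 348 and 374 CPM in 80S monosomes and 1713, 1206 and 1485 CPM in polysomes (log2 fold change 1.93, SE 0.08, adjusted p = 4.30e-38). A short gene stood beside these. dpn, a repressor known from neural stem cells (chromosome 2R, 8228971 to 8232330), had 7.02, 3.99 and 6.46 CPM in 80S monosomes and 25.7, 14.8 and 29.3 CPM in polysomes, a difference of 2.0 on the log2 scale (SE 0.12, adjusted p = 1.12e-26), at a low level in both. mei-P26, a TRIM protein known for its control of germline differentiation (chromosome X, 9163255 to 9189309), had 592, 513 and 556 CPM and 2522, 2076 and 2515 CPM, a difference of 2.10 on the log2 scale (SE 0.08, adjusted p = 1.74e-39). In all 5 genes the lowest polysome library was above the highest 80S library.

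Other genes of the list belong to none of these classes. tweek, which acts in synaptic vesicle recycling, had 306, 255 and 284 CPM in 80S monosomes and 1346, 903 and 1116 CPM in polysomes (log2 fold change 1.98, SE 0.07, adjusted p = 3.80e-39). The cyclic nucleotide-gated channel gene Cngl had 240.4, 208 and 209 CPM and 1002, 661 and 826 CPM (log2 fold change 1.90, SE 0.07, adjusted p = 2.35e-36). CG3339, which has no role given here, had 13.7, 6.69 and 10.97 CPM in 80S monosomes and 54.2, 22.9 and 41.2 CPM in polysomes (log2 fold change 1.89, SE 0.10, adjusted p = 2.14e-30), with polysome replicate 2 the lowest of its fraction, as in the other 2 genes.

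**Figure D3:**
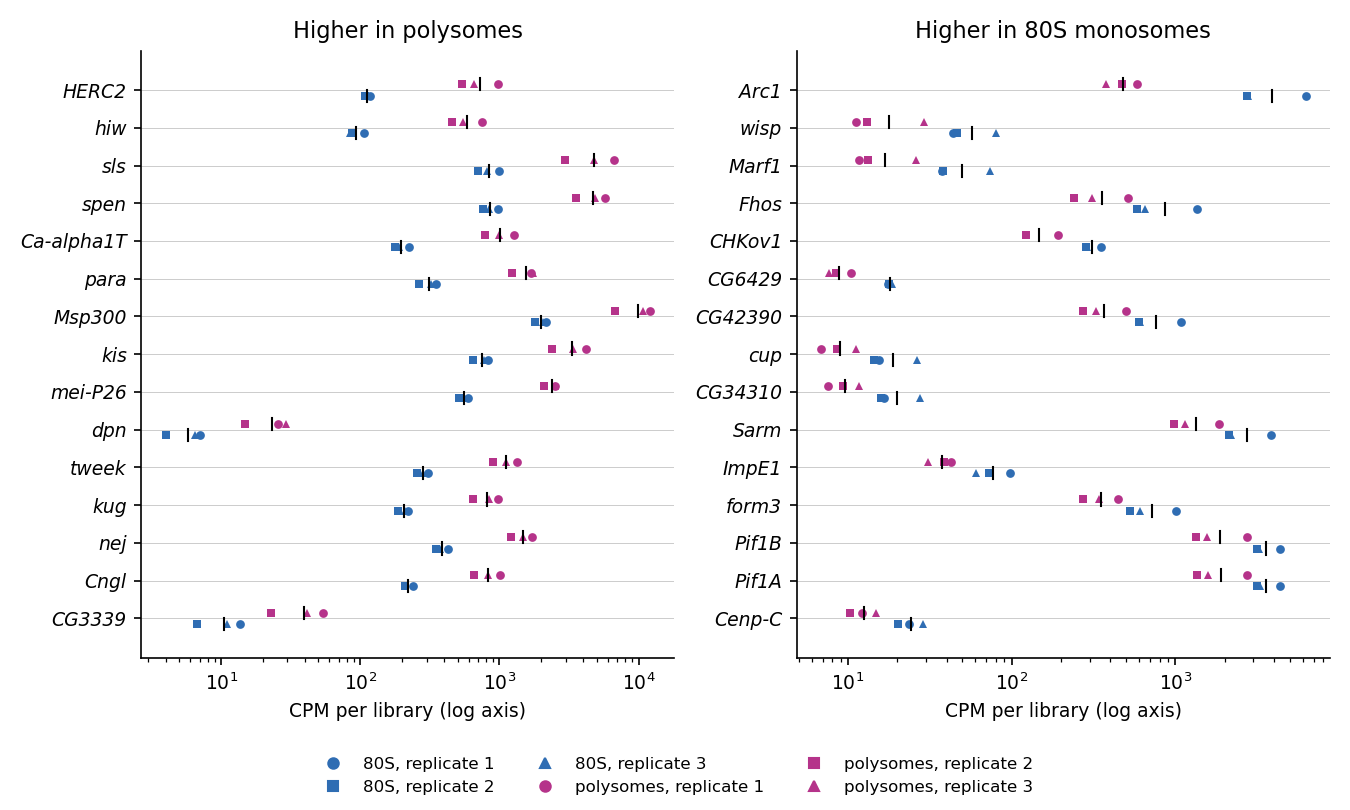
CPM per library (log axis) for the 15 genes named at each end, with 80S monosomes in blue, polysomes in purple and replicates as circles, squares and triangles. Vertical bars are means of 3 libraries, and the fractions do not overlap for any of the 30 genes.

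Ion channel genes set the electrical activity of neurons, and most were higher in polysomes. Of 39 genes for voltage-gated and leak channels and their subunits, all of which were tested, 25 were higher in polysomes (64.1%), 1 was higher in 80S monosomes and 13 did not pass, and the median log2 fold change of the list was 0.49. One of the 25, cac, is also in the synaptic list. The median coding sequence of the channel list was 1019 codons, and 26.2% of all tested genes of 1000 to under 2000 codons were higher in polysomes. The pore-forming genes were at the top. para encodes the sodium channel of the action potential (chromosome X, 16455027 to 16533096), and had 353, 266 and 320.0 CPM in 80S monosomes and 1687, 1238 and 1739 CPM in polysomes, a difference of 2.31 on the log2 scale (SE 0.08, adjusted p = 8.83e-43). The T-type calcium channel gene Ca-alpha1T (chromosome X, 6104085 to 6192483) had 225, 177 and 190.4 CPM and 1267, 784 and 989 CPM, a difference of 2.34 on the log2 scale (SE 0.08, adjusted p = 5.64e-43). NaCP60E, a relative of para, had 329, 255 and 285 CPM in 80S monosomes and 1188, 826 and 1027 CPM in polysomes (log2 fold change 1.8, SE 0.07, adjusted p = 3.52e-37). The polysome libraries of all 3 genes were above every 80S library. The sodium leak channel complex is made of na, unc79 and unc80, which set the resting excitability of clock neurons. Its log2 fold changes were 1.31 for na, 1.25 for unc79 and 1.11 for unc80 (adjusted p at most 2.52e-24). Potassium channels, which repolarise the membrane, gave 1.32 for Shab, 1.26 for eag, 0.80 for slo, 0.78 for Sh and 0.32 for Shal, all past the threshold, though Shal was not past it without replicate 2 or without replicate 3. The exception was sand, a leak potassium channel known from sleep control, with 5.11, 3.67 and 3.98 CPM in 80S monosomes and 3.41, 2.004 and 2.44 CPM in polysomes (log2 fold change -0.73, SE 0.20, adjusted p = 0.00218), a low level at which the fractions were separated by little. This call was lost without replicate 2, where the list had 24 genes higher in polysomes and 0 in 80S monosomes, without replicate 3, where it had 21 and 0, and with DESeq2, where it had 25 and 0.

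Cell surface genes used in wiring were higher in polysomes or did not pass, with few exceptions. Of 38 genes for cadherins, Dscams, teneurins, axon guidance receptors and receptor phosphatases, 15 were higher in polysomes (39.5%), 3 in 80S monosomes and 20 did not pass (median 0.11). Their median coding sequence was 1809.5 codons, and 26.2% of all tested genes of 1000 to under 2000 codons were higher in polysomes. kug, an atypical cadherin of the Fat class (chromosome 3L, 20005301 to 20024607), had 219, 188 and 209 CPM in 80S monosomes and 970.0, 641 and 844 CPM in polysomes, a difference of 1.98 on the log2 scale (SE 0.07, adjusted p = 2.37e-38). The seven-pass cadherin gene stan had 79.1, 69.4 and 66.3 CPM and 266, 178 and 214 CPM (log2 fold change 1.59, SE 0.07, adjusted p = 1.10e-31). For the teneurin gene Ten-a, whose product matches synaptic partners, the values were 395, 307 and 313 CPM in 80S monosomes and 1188, 839.6 and 1038 CPM in polysomes (log2 fold change 1.59, SE 0.07, adjusted p = 2.43e-33). Against these stood the receptor phosphatase gene Ptp69D, with 149.7, 134 and 142 CPM in 80S monosomes and 105, 101 and 112 CPM in polysomes (log2 fold change -0.42, SE 0.07, adjusted p = 2.31e-07). The count for 80S monosomes was 1 without replicate 1 and 1 without replicate 2. Among the smaller immunoglobulin proteins of the dpr and DIP families, which pair with each other at synaptic layers, 12 of 31 tested were higher in polysomes and 0 in 80S monosomes (median 0.17, and 29 of 31 positive). The count of 0 in the edgeR test was also 0 at an unadjusted p under 0.05 and 0 with DESeq2. DIP-beta had 32.3, 33.2 and 29.5 CPM in 80S monosomes and 57.1, 49.0 and 54.5 CPM in polysomes (log2 fold change 0.75, SE 0.08, adjusted p = 1.91e-13), DIP-zeta had a log2 fold change of 0.63 and dpr12 one of 0.55. These coding sequences were short beside those of the cadherins, at 555, 532 and 326 codons.

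Very large signalling and trafficking proteins were often higher in polysomes. Of 10 genes for Vps13 lipid transfer proteins, BEACH proteins and phosphoinositide kinases, 9 were higher in polysomes and 0 in 80S monosomes, with a median of 0.55. Their median coding sequence was 2917 codons, and 71.5% of all tested genes of 2000 codons or more were higher in polysomes. In 80S monosomes 0 were also seen at an unadjusted p under 0.05 in edgeR and 0 with DESeq2. rg encodes a BEACH protein that anchors protein kinase A, and had 361, 309 and 314 CPM in 80S monosomes and 1005, 779 and 904 CPM in polysomes (log2 fold change 1.44, SE 0.07, adjusted p = 3.04e-31), though 94.4% of its exon bases lie in other genes on the same strand, with which it could share reads. bchs, which acts in autophagy, had 260.3, 225 and 219 CPM and 559, 468 and 483 CPM (log2 fold change 1.10, SE 0.07, adjusted p = 2.99e-25), and Vps13B had 55.3, 42.3 and 46.9 CPM and 109.9, 83.9 and 97.0 CPM (log2 fold change 1.01, SE 0.07, adjusted p = 4.99e-22). Pi3K68D was the member that did not pass (-0.04, adjusted p = 0.696). Of 27 exchange factors and activators of small GTPases, the switches of the cytoskeleton, 12 were higher in polysomes (44.4%) and 2 in 80S monosomes (median 0.18). Their median coding sequence was 1866 codons, and 26.2% of all tested genes of 1000 to under 2000 codons were higher in polysomes. RhoGAP100F had 201, 192 and 184 CPM in 80S monosomes and 792, 517 and 601 CPM in polysomes (log2 fold change 1.71, SE 0.08, adjusted p = 9.90e-25), while the Rac exchange factor gene sif, with 71.9% of exon bases shared, gave 1.55 and Cdep 1.52. RhoGEF64C went the other way, with 234, 171 and 181 CPM and 183, 116 and 147 CPM (log2 fold change -0.40, SE 0.07, adjusted p = 6.57e-07).

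Of 24 genes for ubiquitin ligases, enzymes that tag proteins for degradation, 10 were higher in polysomes, 1 was higher in 80S monosomes and 13 did not pass (median 0.08). The list was drawn up as one of giant ligases but held smaller ones too, with a median coding sequence of 1061.5 codons. It was divided by size. HUWE1 had 5151 codons, with 398, 305 and 339 CPM in 80S monosomes and 1350.3, 956 and 1184 CPM in polysomes (log2 fold change 1.74, SE 0.07, adjusted p = 6.16e-36), and stood behind HERC2 and hiw. poe, with 5322 codons, gave 1.47, and the apoptosis inhibitor gene Bruce, with 4976 codons, gave 1.43. The cullin gene Cul4, with 821 codons, had 28.1, 34.4 and 34.8 CPM in 80S monosomes and 27.3, 24.6 and 25.4 CPM in polysomes (log2 fold change -0.35, SE 0.09, adjusted p = 0.00106), and this call was lost without replicate 2, without replicate 3 and with DESeq2. The list then had 8, 8 and 10 genes higher in polysomes and 0 in 80S monosomes in each of these fits. Cul1, the scaffold of another ligase family, did not pass (-0.11, adjusted p = 0.204).

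Chromatin proteins and transcription coregulators were higher in polysomes more often than all genes tested, and higher in 80S monosomes about as often. Of 64 genes, 22 were higher in polysomes (34.4%) and 9 in 80S monosomes (14.1%), with a median of 0.08. Over all genes tested the shares were 12.7% and 12.8%. The median coding sequence of the list was 1621 codons. Among all tested genes of 1000 to under 2000 codons the shares were 26.2% and 19.4%. Behind spen, kis and nej, the histone methyltransferase gene trx had 396, 294 and 325 CPM in 80S monosomes and 1498, 894 and 1198 CPM in polysomes (log2 fold change 1.8, SE 0.07, adjusted p = 6.11e-36). Mediator kinase module genes skd and kto gave 1.16 and 0.39. The histone demethylase gene Utx had 121, 100.4 and 101 CPM in 80S monosomes and 80.2, 70.5 and 71.98 CPM in polysomes (log2 fold change -0.53, SE 0.07, adjusted p = 6.70e-10), with no overlap. osa, a subunit of the SWI/SNF remodeller, gave 0.66 (adjusted p = 4.25e-13). The 80S count fell to 4 without replicate 2 and to 4 without replicate 3.

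Muscle genes were found at both ends. The longest muscle proteins, which span the sarcomere like titin or anchor nuclei, were higher in polysomes. sls, a titin-like protein of 18468 codons (chromosome 3L, 2039681 to 2115611), had 996, 706 and 812 CPM in 80S monosomes and 6649.7, 2938 and 4742 CPM in polysomes, a difference of 2.45 on the log2 scale (SE 0.10, adjusted p = 1.14e-20). The nesprin-like anchor gene Msp300 (chromosome 2L, 5100877 to 5207002, 13540 codons) had 2152, 1811 and 2040.2 CPM and 12093, 6764 and 10800.2 CPM, a difference of 2.27 on the log2 scale (SE 0.09, adjusted p = 1.15e-28). bt, which encodes projectin, had 2373, 2088 and 2489 CPM in 80S monosomes and 9808, 5118 and 7552 CPM in polysomes (log2 fold change 1.65, SE 0.10, adjusted p = 4.06e-14). In the same list of 13 genes, 5 were higher in polysomes and 4 in 80S monosomes, the latter led by the Z-disc gene Zasp52 with 1736, 1003 and 1130.2 CPM in 80S monosomes and 925, 609 and 750.5 CPM in polysomes (log2 fold change -0.74, SE 0.07, adjusted p = 3.39e-14), where the fractions did not overlap. Replicate 1 was the highest library of both fractions for sls and for Zasp52.

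Among 20 tested genes of the thin and thick filaments, the machinery of contraction, 7 were higher in 80S monosomes, 2 were higher in polysomes and 11 did not pass, with a median of -0.13. The calcium sensor genes TpnC25D and TpnC41C led. TpnC25D had 174, 247 and 243 CPM in 80S monosomes and 107, 169 and 143 CPM in polysomes (log2 fold change -0.67, SE 0.07, adjusted p = 3.82e-14), and TpnC41C gave -0.52 (adjusted p = 1.00e-09). The muscle actin gene Act57B had 971, 1137 and 1083 CPM and 611, 867 and 791 CPM (log2 fold change -0.50, SE 0.07, adjusted p = 1.77e-08). For Mhc, the only muscle myosin heavy chain gene of the fly, the values were 9948, 5484 and 5841 CPM in 80S monosomes and 6031, 4304 and 4442 CPM in polysomes (log2 fold change -0.49, SE 0.09, adjusted p = 1.95e-06), and here polysome replicate 1 lay above the 2 lower 80S libraries. Strn-Mlck, of 8255 codons, was the exception in size and in direction, with 547, 382 and 430.0 CPM and 2369, 1112 and 1584 CPM (log2 fold change 1.85, SE 0.08, adjusted p = 3.87e-26). Without replicate 1 there were 6 genes higher in 80S monosomes and 5 in polysomes, with a median of 0.01, and without replicate 2 there were 8 and 1. DESeq2 gave 5 and 5, and did not call Mhc. The fit without the replicate block gave 0 genes higher in 80S monosomes and 1 in polysomes. The sum of the 3 muscle markers, 5663 to 9663 CPM in 80S monosomes and 6680 to 10432 CPM in polysomes, is made up mostly of Mhc and sls, which went opposite ways, and gives no measure of the muscle content.

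**Figure D4:**
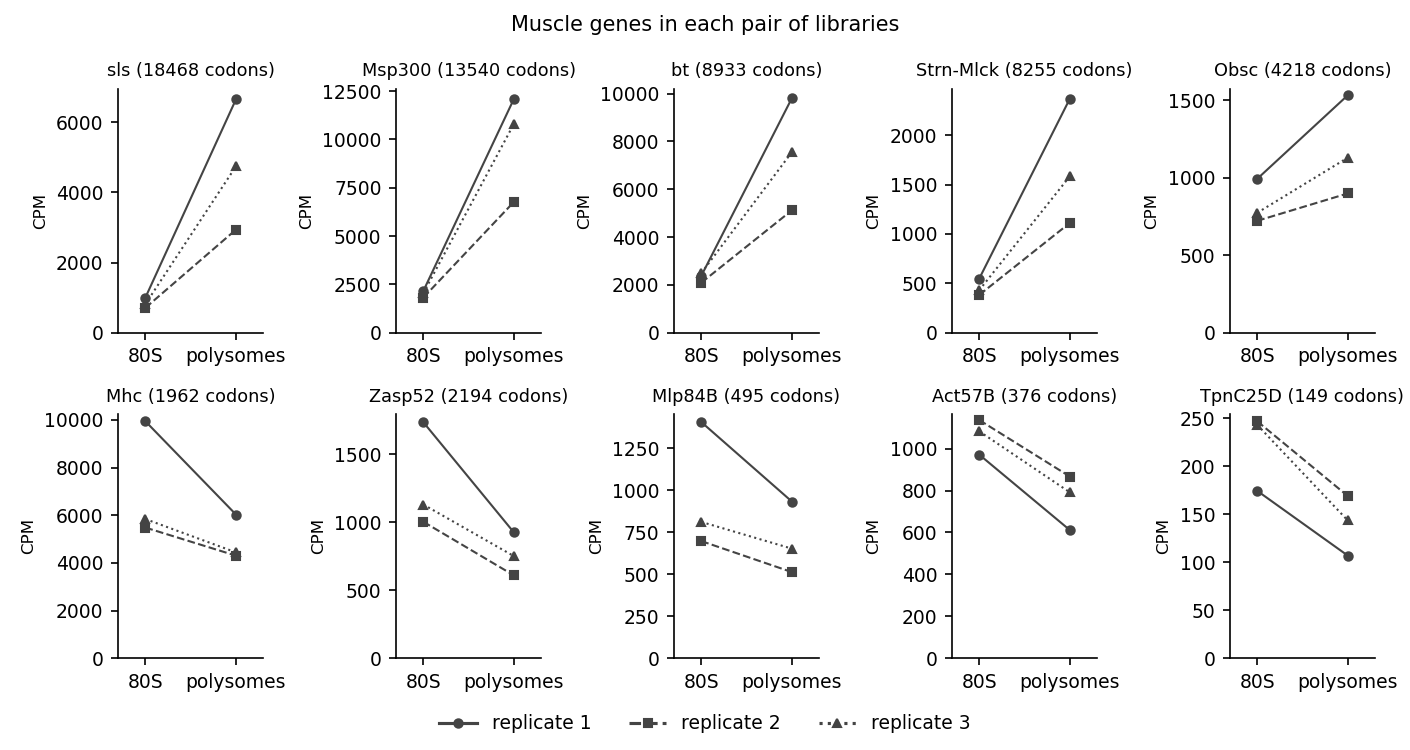
CPM of 10 muscle genes in 80S monosomes and polysomes, with a line for each replicate and linear axes from 0. The top row holds genes of 4218 (Obsc) to 18468 (sls) codons, which rose toward polysomes in all 3 pairs, and the bottom row genes of 149 (TpnC25D) to 2194 (Zasp52) codons, which fell in all 3.

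Motor and cytoskeletal genes were called in both directions. Of 17 tested kinesin and dynein heavy chain genes, 7 were higher in polysomes (41.2%) and 3 in 80S monosomes (17.65%), with a median of 0.09. Their median coding sequence was 1212 codons. Among all tested genes of 1000 to under 2000 codons the shares were 26.2% and 19.4%. The heavy chain of cytoplasmic dynein, the motor toward microtubule minus ends, is Dhc64C, which had 386, 348 and 328 CPM in 80S monosomes and 906, 709 and 753 CPM in polysomes (log2 fold change 1.15, SE 0.07, adjusted p = 2.00e-25). Axonemal heavy chains drive cilia, which sensory neurons carry, and Dhc93AB had 49.7, 36.9 and 47.5 CPM and 156, 92.5 and 135 CPM (log2 fold change 1.49, SE 0.07, adjusted p = 8.55e-32). Dhc98D (2.16) and Dhc36C (1.62) were called at 15.9 CPM or less in every library. The mitotic kinesin gene Klp61F was lower in polysomes, with 1.74, 3.40 and 5.11 CPM in 80S monosomes and 1.62, 1.89 and 2.63 CPM in polysomes (log2 fold change -0.76, SE 0.22, adjusted p = 0.00387). The call of Klp61F was lost without replicate 2, when 1 of these genes was higher in 80S monosomes, without replicate 3, when 0 were, and with DESeq2. In the list of axonal cytoskeleton genes, 7 of 31 were higher in polysomes (22.6%) and 5 in 80S monosomes (16.1%), with a median of 0.01. The latter share was near the 12.8% of all genes tested. The spectraplakin gene shot, which links actin and microtubules, had 1146, 919.9 and 1085 CPM in 80S monosomes and 4937, 2829 and 3836 CPM in polysomes (log2 fold change 1.85, SE 0.08, adjusted p = 2.52e-31). Map205, a microtubule-binding protein, had 304, 240.3 and 234 CPM and 179, 154 and 165 CPM (log2 fold change -0.63, SE 0.07, adjusted p = 3.08e-13). The actin gene Act5C did not pass (-0.10, adjusted p = 0.273). The count for 80S monosomes was 3 without replicate 1, 2 without replicate 2 and 1 without replicate 3.

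Secreted peptides were among the short genes of the polysome end. Of 40 tested genes for neuropeptide precursors, 18 were higher in polysomes (45.0%), 2 were higher in 80S monosomes and 20 did not pass, and the median log2 fold change of the list was 0.38 at a median coding sequence of 146 codons. Over all tested genes under 200 codons, 12.4% were higher in polysomes. The largest difference was in Ilp1, an insulin-like peptide, at 1.797 CPM or less in every library (2.68, with 40.9% of its exon bases shared with another gene), and SIFa, a peptide of a few brain neurons that acts on feeding and courtship, had 0.787, 1.32 and 1.35 CPM in 80S monosomes and 2.87, 3.56 and 4.33 CPM in polysomes (log2 fold change 1.61, SE 0.24, adjusted p = 2.37e-08). Mip, which acts in sleep and mating receptivity, had 6.46, 7.90 and 6.58 CPM and 9.52, 15.8 and 15.8 CPM (log2 fold change 0.99, SE 0.13, adjusted p = 3.61e-10). Better covered members differed by less. sNPF, a feeding peptide of many brain neurons, had 50.5, 79.5 and 67.4 CPM in 80S monosomes and 90.1, 119 and 108.6 CPM in polysomes (log2 fold change 0.70, SE 0.07, adjusted p = 4.40e-14), and the fractions did not overlap. Dh31, a wake-promoting peptide, gave 0.98, Tk 0.81 and Nplp2 0.72. The opposite direction was seen for Nplp3, with 973, 1922 and 1622 CPM in 80S monosomes and 751, 1436 and 1156 CPM in polysomes (log2 fold change -0.43, SE 0.07, adjusted p = 1.53e-06), which was lower in polysomes in all 3 pairs though the fractions overlapped, and for ITP (-0.32), a hormone of water balance. Leaving out a replicate gave 14 to 20 precursors higher in polysomes and 2 in 80S monosomes. Leaving out the replicate block gave 3 and 0.

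The receptors of these peptides had smaller differences. Of 39 genes, 11 were higher in polysomes and 1 in 80S monosomes, with a median of 0.26 and 33 of 39 positive. CCKLR-17D1, a receptor for drosulfakinin, had 3.48, 3.96 and 2.95 CPM in 80S monosomes and 7.82, 4.71 and 5.601 CPM in polysomes (log2 fold change 0.74, SE 0.18, adjusted p = 0.000516), and AstC-R2 had 10.8, 11.6 and 12.4 CPM and 20.6, 19.1 and 18.4 CPM (log2 fold change 0.72, SE 0.11, adjusted p = 3.02e-08). Without replicate 3 the call of CCKLR-17D1 was lost. InR, the insulin receptor, had 295, 248 and 258 CPM in 80S monosomes and 452, 377 and 409.7 CPM in polysomes (log2 fold change 0.63, SE 0.07, adjusted p = 3.62e-13). PK1-R was lower in polysomes, with 27.6, 14.6 and 17.6 CPM and 18.3, 10.5 and 12.7 CPM (log2 fold change -0.51, SE 0.10, adjusted p = 3.76e-05). Downstream of InR, the target of rapamycin genes mTor (0.50), rictor (0.46) and raptor (0.40) were higher in polysomes, while the receptor substrate gene chico (-0.40) and the kinase gene S6k (-0.33) were higher in 80S monosomes. In all, 6 of 27 genes of the pathway were higher in polysomes (22.2%) and 3 in 80S monosomes (11.1%), with a median of -0.003, and of 0.02 without replicate 1. Over all genes tested the shares were 12.7% and 12.8%, so that the share of 80S monosomes was near that of all genes.

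Antimicrobial and other immune-induced peptides, which the fat body secretes on infection, were likewise often higher in polysomes at a median of 82 codons. Of 39 tested genes, 17 were higher in polysomes (43.6%), 2 in 80S monosomes and 20 did not pass (median 0.46). Drsl4 had 3.03, 2.21 and 4.08 CPM in 80S monosomes and 9.25, 8.35 and 7.06 CPM in polysomes (log2 fold change 1.40, SE 0.18, adjusted p = 1.00e-09). BomT2, of the Bomanin family, had 5.56, 13.8 and 11.6 CPM and 14.6, 28.9 and 24.5 CPM (log2 fold change 1.14, SE 0.11, adjusted p = 1.30e-15), and edin was called at 1.35 CPM or less (1.34), a call that was lost without any 1 replicate and with DESeq2. Replicate 1 was the lowest of the 3 in 80S monosomes for BomT2, and the difference held within each pair. Better covered were Dso1, with 92.2, 217 and 173 CPM in 80S monosomes and 202, 409 and 244 CPM in polysomes (log2 fold change 0.84, SE 0.09, adjusted p = 2.06e-08), and the stress peptide gene TotA (0.91), in both of which the fractions overlapped while each pair rose. BomS3, of the same family as BomT2, went the other way, with 326, 736 and 599 CPM in 80S monosomes and 242, 415 and 291 CPM in polysomes (log2 fold change -0.77, SE 0.08, adjusted p = 1.34e-09). BomS1 (0.45) and BomS2 (0.78) were higher in polysomes, the former not with DESeq2. The 2 genes higher in 80S monosomes were 1 without replicate 2 and 1 without replicate 3. In the fit without the replicate block 3 genes were higher in polysomes and 0 in 80S monosomes. The deposited counts split reads that map to several places, so that close paralogs of such families share reads.

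Odorant binding proteins are small proteins secreted around sensory neurons. Of 33 tested, 11 were higher in polysomes (33.3%) and 5 in 80S monosomes (15.2%), with a median of 0.17. The latter share was near the 12.8% of all genes tested. Obp28a had 16.4, 23.4 and 35.97 CPM in 80S monosomes and 32.1, 41.3 and 52.7 CPM in polysomes (log2 fold change 0.76, SE 0.09, adjusted p = 3.18e-12), and its libraries overlapped although each pair rose. Obp83g (0.81) and Obp85a (1.89) were called at 4.14 CPM or less. Obp8a had 4.89, 3.24 and 4.44 CPM in 80S monosomes and 2.52, 2.004 and 1.75 CPM in polysomes (log2 fold change -0.99, SE 0.21, adjusted p = 7.51e-05). Obp57a and Obp57b, neighbouring genes of taste hairs, gave -0.60 and -0.59. Without replicate 1 the call of Obp85a was lost. Without replicate 2 that of Obp83g was lost, and the list had 6 genes higher in polysomes and 5 in 80S monosomes. Without replicate 3 those of Obp83g, Obp8a and Obp57a were lost, and the counts were 9 and 1. The counts were 0 and 1 in the fit without the replicate block.

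Tissue lists of the head had calls in both directions. Among 37 tested fat body and yolk genes, 12 were higher in polysomes (32.4%) and 3 in 80S monosomes (8.1%), with a median of 0.07. The latter share was below the 12.8% of all genes tested. The larval serum protein gene Lsp1gamma had 4.72, 7.01 and 6.48 CPM in 80S monosomes and 13.3, 14.7 and 14.9 CPM in polysomes (log2 fold change 1.22, SE 0.13, adjusted p = 1.08e-13), Lsp1alpha gave 0.91, and Fbp2 gave 1.58 at 2.07 CPM or less. Lsp2, a serum protein of the fat body, had 3686, 5677 and 4671 CPM in 80S monosomes and 2902, 4718 and 3545 CPM in polysomes (log2 fold change -0.34, SE 0.08, adjusted p = 0.000503), with overlapping libraries. Fbp2 lost its call without replicate 2, and Lsp2 without replicate 3. The count of 3 in 80S monosomes was 1 without replicate 1, 1 without replicate 2 and 0 without replicate 3.

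In the list of 36 photoreceptor genes, 10 were higher in polysomes and 8 in 80S monosomes (median 0.02). The main rhodopsin gene ninaE, the light sensor of the outer photoreceptors, had 9463, 8921 and 8085 CPM in 80S monosomes and 6110.0, 6812 and 6244 CPM in polysomes (log2 fold change -0.46, SE 0.09, adjusted p = 6.43e-06), without overlap. The rhodopsin genes Rh2 (-0.40) and Rh3 (-0.30) went the same way. The transduction channel genes trp (0.33) and trpl (0.37), the diacylglycerol kinase gene rdgA (0.41) and the lipid transfer gene rdgB (0.45) were higher in polysomes. Calx, the sodium-calcium exchanger that clears calcium after light, had 213, 188 and 207 CPM in 80S monosomes and 443, 362 and 388 CPM in polysomes (log2 fold change 0.97, SE 0.07, adjusted p = 2.73e-22), and the matrix protein gene eys had 889, 901 and 816 CPM and 1414, 1471 and 1427 CPM (log2 fold change 0.73, SE 0.07, adjusted p = 4.59e-14). Trpgamma gave 0.94 at 3.23 CPM or less. The scaffold gene inaD (0.09) and the arrestin gene Arr2 (-0.15) did not pass, nor did the phospholipase gene norpA (0.20), which passed without replicate 1 and with DESeq2. Without replicate 2 the counts were 7 and 5, and trp lost its call. Without replicate 3 they were 5 and 2, and Rh2, Rh3, trp, rdgA and Trpgamma lost theirs. Trpgamma was also not called with DESeq2. The fit without the replicate block gave 2 genes higher in polysomes and 0 in 80S monosomes.

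Of 25 tested glial genes, 6 were higher in 80S monosomes and 1 in polysomes (median -0.13). gem had 1093, 908 and 833 CPM in 80S monosomes and 594, 582 and 596 CPM in polysomes (log2 fold change -0.67, SE 0.07, adjusted p = 2.24e-12), but 98.7% of its exon bases are shared with other genes of its strand. The transporter gene ine had 146, 103.7 and 99.1 CPM and 88.9, 78.0 and 76.1 CPM (log2 fold change -0.50, SE 0.07, adjusted p = 9.75e-09), and alrm, an astrocyte marker, had 40.7, 55.0 and 50.7 CPM and 35.8, 44.8 and 33.0 CPM (log2 fold change -0.38, SE 0.08, adjusted p = 8.19e-05). axo was higher in polysomes (0.27, adjusted p = 0.000707). The glial fate gene repo (-0.16) and the glutamate transporter gene Eaat1 (0.08) did not pass. The counts were 3 in 80S monosomes and 0 in polysomes without replicate 2, where axo lost its call, and 2 and 0 without replicate 3, where alrm and axo lost theirs.

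At the 80S end above 10 CPM, Arc1, wisp, Marf1, Fhos, CHKov1, CG6429, CG42390, cup, CG34310, Sarm, ImpE1, form3, Pif1B, Pif1A and Cenp-C were the genes named, with log2 fold changes from -2.95 to -0.97 and no overlap between the fractions. The lack of overlap follows in part from how they were picked, as at the polysome end. Total RNA lay between the fractions in 6 of them and below both in 9. cup and CG34310 cover the same exons (100% of cup), as do Pif1A and Pif1B (99.9% of Pif1B), so that each pair shares reads and counts as 1 signal. Without the replicate block 10 of the 15 lost the call, while no other setting changed it. Arc1, a capsid-forming protein derived from a retrotransposon that carries its own mRNA between cells (chromosome 2R, 14357927 to 14360297), had 6241, 2733 and 2786 CPM in 80S monosomes and 584, 469 and 378 CPM in polysomes, a difference of -2.95 on the log2 scale (SE 0.15, adjusted p = 8.72e-08). Its 80S level in replicate 1 was more than 2-fold that of either other replicate. The axon degeneration gene Sarm, whose product is an NAD hydrolase (chromosome 3L, 8063874 to 8108897), had 3848, 2129.7 and 2187 CPM in 80S monosomes and 1858, 981 and 1147 CPM in polysomes, a difference of -1.03 on the log2 scale (SE 0.08, adjusted p = 2.31e-20). In total RNA Sarm had 1072 CPM when all 9 libraries were scaled together, less than in either fraction.

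A pair of formins, which nucleate actin filaments, were in the list. Fhos (chromosome 3L, 8753619 to 8798719, 2528 codons) had 1352, 586 and 653 CPM in 80S monosomes and 512, 242 and 309.9 CPM in polysomes, a difference of -1.25 on the log2 scale (SE 0.07, adjusted p = 7.76e-27). form3 (chromosome 3L, 7094818 to 7123297) had 1005, 529.7 and 610.5 CPM and 448, 272 and 339.6 CPM, a difference of -0.99 on the log2 scale (SE 0.07, adjusted p = 2.61e-21). Both had replicate 1 as the highest library of each fraction, as had Sarm and CG42390, which had 1081, 595 and 608 CPM in 80S monosomes and 496, 272 and 328 CPM in polysomes (log2 fold change -1.05, SE 0.07, adjusted p = 7.38e-23). CHKov1, a choline kinase-like gene overlapped by 1 annotated transposable element copy, had 352, 286 and 289 CPM and 192, 122 and 123.1 CPM (log2 fold change -1.11, SE 0.07, adjusted p = 1.44e-23). The ecdysone-inducible gene ImpE1 had 97.1, 72.3 and 60.8 CPM in 80S monosomes and 42.6, 38.5 and 30.7 CPM in polysomes (log2 fold change -1.02, SE 0.08, adjusted p = 9.17e-21), and CG6429, with 159 codons, had 17.5, 17.7 and 18.6 CPM and 10.4, 8.39 and 7.69 CPM (log2 fold change -1.06, SE 0.12, adjusted p = 1.30e-12). The kinetochore gene Cenp-C, which links centromeres to the spindle, had 23.7, 20.2 and 28.9 CPM and 12.2, 10.3 and 14.8 CPM (log2 fold change -0.97, SE 0.10, adjusted p = 2.81e-13). The gene Pif1A had 4349, 3146 and 3269 CPM in 80S monosomes and 2747, 1354 and 1577 CPM in polysomes (log2 fold change -0.98, SE 0.08, adjusted p = 2.41e-15). The coding sequences of Fhos, form3, Sarm and CG42390 were 1544 to 2528 codons, so that this end also held long genes.

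Genes of the female germline formed part of the 80S end at low levels. Of 33 tested maternal or germline genes, 12 were higher in 80S monosomes (36.4%), 2 were higher in polysomes and 19 did not pass, and the median log2 fold change of the list was -0.53. wisp encodes the poly(A) polymerase of the egg cytoplasm (chromosome X, 11893943 to 11899920), and had 43.6, 46.1 and 80.6 CPM in 80S monosomes and 11.1, 13.1 and 29.1 CPM in polysomes, a difference of -1.71 on the log2 scale (SE 0.09, adjusted p = 7.61e-29). piwi, which silences transposable elements, had 3.77, 4.29 and 8.396 CPM and 0.809, 0.891 and 2.05 CPM (log2 fold change -2.14, SE 0.22, adjusted p = 4.75e-14). swa, which localises mRNA in the oocyte, had 4.10, 5.90 and 7.86 CPM in 80S monosomes and 1.71, 0.928 and 3.12 CPM in polysomes (log2 fold change -1.75, SE 0.21, adjusted p = 5.01e-10). Replicate 3 was the highest library of both fractions for all 3 genes, and the difference was in the same direction in each pair. The germ plasm genes osk (-0.43) and vas (-1.24) went the same way, but 78.5% of the exon bases of osk are shared, and its call was lost without replicate 1, without replicate 2 and with DESeq2. tud, at a high level in head, had 2119, 1720.0 and 1740.4 CPM in 80S monosomes and 1649, 980.4 and 1125 CPM in polysomes (log2 fold change -0.60, SE 0.08, adjusted p = 8.05e-10). The piRNA cluster gene rhi went the other way, with 1.57, 1.02 and 2.31 CPM and 4.22, 2.23 and 4.68 CPM (log2 fold change 1.15, SE 0.23, adjusted p = 2.01e-05), as did orb (0.70). Only 11 members had a mean of at least 10 CPM, with 5 higher in 80S monosomes and a median of -0.16 when others were not fitted. Without replicate 3 the counts were 11 and 2, with a median of -0.35. In the fit without the replicate block 0 were higher in 80S monosomes and 1 in polysomes, with a median of -0.52. Summed ovary markers were 10.8 to 23.2 CPM in 80S monosomes and 4.98 to 15.98 CPM in polysomes, and the egg shell markers were near 0. The oocyte gene Marf1, not in the list, had 37.6, 38.3 and 74.1 CPM in 80S monosomes and 11.6, 13.3 and 25.9 CPM in polysomes (log2 fold change -1.56, SE 0.09, adjusted p = 4.96e-28).

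Regulators of mRNA translation and decay were divided. Of 54 genes, 19 were higher in 80S monosomes (35.2%), 10 were higher in polysomes (18.5%) and 25 did not pass (median -0.11). Members with related roles were found on both sides. me31B, the DEAD-box helicase of processing bodies, had 47.1, 60.1 and 84.7 CPM in 80S monosomes and 37.6, 43.9 and 48.1 CPM in polysomes (log2 fold change -0.55, SE 0.08, adjusted p = 2.51e-08). Its partners tral (-0.40), Edc3 (-0.39) and Patr-1 (-0.33) and the decapping enzyme gene DCP2 (-0.38) were also called there. cup, whose product binds eIF4E and blocks initiation, had 15.4, 14.5 and 26.2 CPM in 80S monosomes and 6.83, 8.61 and 11.2 CPM in polysomes (log2 fold change -1.04, SE 0.12, adjusted p = 2.39e-12). nanos had 3.60, 5.04 and 8.79 CPM and 0.719, 1.63 and 3.12 CPM (log2 fold change -1.66, SE 0.20, adjusted p = 3.90e-11), and Lsm12a, a partner of Atx2, had 38.8, 32.8 and 34.1 CPM and 25.96, 22.4 and 22.5 CPM (log2 fold change -0.58, SE 0.09, adjusted p = 3.47e-08). On the polysome side, bru3, a CELF-type RNA-binding protein, had 415, 416 and 379 CPM in 80S monosomes and 891, 756 and 813 CPM in polysomes (log2 fold change 1.02, SE 0.07, adjusted p = 4.36e-22). The repressors brat (0.87) and pum (0.50), the memory gene orb2 (0.57) and the deadenylase scaffold Not1 (0.68) were also higher in polysomes, while the deadenylase Pop2 of the same complex was lower (-0.29). The 80S count was 10 without replicate 2, where Pop2 lost its call, and 9 without replicate 3, where Pop2 and Patr-1 lost theirs. It was 0 without the replicate block, where 7 genes were higher in polysomes.

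Transcription factors that respond to activity, hormones or stress gave 6 genes higher in polysomes (26.1%) and 4 in 80S monosomes (17.4%) of 23. The median was -0.003, and 0.05 without replicate 1. chinmo, a temporal identity factor of neurons, had 272, 284 and 266 CPM in 80S monosomes and 921, 642 and 730.0 CPM in polysomes (log2 fold change 1.46, SE 0.08, adjusted p = 2.93e-20). br, an ecdysone target, had 108, 122 and 103 CPM and 208, 185 and 196 CPM (log2 fold change 0.82, SE 0.07, adjusted p = 2.58e-17), and mamo gave 0.51. kay, the fly Fos, had 1530.1, 867 and 950.3 CPM in 80S monosomes and 803, 469 and 570.0 CPM in polysomes (log2 fold change -0.85, SE 0.07, adjusted p = 1.72e-17), without overlap. The fly ATF4 gene crc, a factor of the stress response, gave -0.51, with 73.5% of its exon bases shared. Without replicate 3 the counts were 3 and 2, and without replicate 2 they were 5 and 2. In the circadian clock list, 5 of 24 were higher in polysomes (20.8%) and 4 in 80S monosomes (16.7%), with a median of -0.10. Over all genes tested the shares were 12.7% and 12.8%. The translational activator gene tyf had 410.1, 323 and 377 CPM in 80S monosomes and 814, 606 and 706 CPM in polysomes (log2 fold change 0.93, SE 0.07, adjusted p = 1.40e-20), the clock repressor gene tim had 148, 145 and 144 CPM and 245, 184 and 208 CPM (log2 fold change 0.53, SE 0.07, adjusted p = 6.99e-10), and the kinase gene nmo gave 0.47. Atx2, which acts with tyf on the translation of the clock gene per, had 589, 498 and 469.8 CPM in 80S monosomes and 383, 373 and 388 CPM in polysomes (log2 fold change -0.44, SE 0.07, adjusted p = 2.45e-07). Atx2 was not called with DESeq2. The 80S count of this list was 1 without replicate 2 and 1 without replicate 3.

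The tricarboxylic acid cycle, aminoacyl-tRNA synthetase and ribosome biogenesis lists each had more genes higher in 80S monosomes than in polysomes, whereas the glycolysis list had few calls in either direction. Of 21 enzymes of the tricarboxylic acid cycle, 6 were higher in 80S monosomes and 0 in polysomes (median -0.13, 16 of 21 negative), and in polysomes edgeR at an unadjusted p under 0.05 gave 0 and DESeq2 gave 0. The citrate synthase gene kdn had 1306, 1462 and 1465 CPM in 80S monosomes and 1021, 1102 and 1213 CPM in polysomes (log2 fold change -0.35, SE 0.07, adjusted p = 9.00e-05), SdhD gave -0.32 and Idh3b -0.31. This count was 2 without replicate 1, where Idh3b lost its call, and 1 without replicate 3, where SdhD and Idh3b lost theirs, and SdhD was not called with DESeq2. Of 18 genes of glycolysis and glycogen use, Tpi was higher in polysomes (0.26), Pgi (-0.46) and the glycogen phosphorylase gene Glyp (-0.27) were higher in 80S monosomes, and 15 did not pass (median 0.05, 11 of 18 positive). The call of Tpi was lost without replicate 2 and without replicate 3, and that of Glyp without replicate 1, without replicate 3 and with DESeq2. Of 18 aminoacyl-tRNA synthetases, which charge tRNA, 5 were higher in 80S monosomes and 0 in polysomes (median -0.15, 15 of 18 negative), and the count in polysomes was again 0 at an unadjusted p under 0.05 in edgeR and 0 with DESeq2. GluProRS, of 1714 codons, had 223, 164 and 163 CPM and 146, 125 and 138 CPM (log2 fold change -0.41, SE 0.07, adjusted p = 5.94e-07), TyrRS gave -0.42 and GlnRS -0.35. Here the count was 2 without replicate 1 and 3 without replicate 2, and GlnRS lost its call in both and with DESeq2. Of 36 genes of ribosome biogenesis, 8 were higher in 80S monosomes and 1 in polysomes (median -0.10). The GTPase gene Non1 had 433, 306 and 280.1 CPM in 80S monosomes and 233, 196 and 181 CPM in polysomes (log2 fold change -0.72, SE 0.07, adjusted p = 2.11e-15), l(3)72Dn gave -0.50 and mbm -0.46, while the nucleolar gene Nopp140 gave 0.35. The 80S count was 3 without replicate 2, 1 without replicate 3, with a median of 0.005, and 3 with DESeq2. It was 0 without the replicate block, as were those of the tricarboxylic acid cycle and synthetase lists. The call of l(3)72Dn was lost without any 1 replicate and with DESeq2, that of mbm without replicate 2, without replicate 3 and with DESeq2, and that of Nopp140 without replicate 2.

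Other housekeeping lists had few called genes by number, though in some short lists these were a larger share than over all genes tested. Of 75 mitochondrial ribosomal protein genes, tko was higher in polysomes (0.50) and mRpS9 in 80S monosomes (-0.48), with a median of 0.03. By contrast, 82 of 86 tested cytoplasmic ribosomal protein genes were higher in 80S monosomes (median -0.57). tko lost its call without replicate 2 and without replicate 3, and in the latter fit 2 other mitochondrial genes were higher in polysomes and 1 in 80S monosomes. Of 37 proteasome genes, 6 were higher in polysomes (16.2%) and 1 in 80S monosomes (2.7%), with a median of 0.06. The counts were 1 and 0 without replicate 2 and 2 and 1 without replicate 3. Of 42 genes for entry into the secretory pathway, 0 were higher in polysomes and 3 in 80S monosomes (median -0.04), with 2 and 3 without replicate 1. In polysomes edgeR gave 5 of them at an unadjusted p under 0.05 and DESeq2 gave 1. Of 35 genes of complex I of the respiratory chain, 4 were higher in polysomes (11.4%) and 5 in 80S monosomes (14.3%), with a median of -0.05. Both shares were near the 12.7% and 12.8% of all genes tested. The counts were 4 and 3 without replicate 1, 1 and 6 without replicate 2 and 2 and 0 without replicate 3, where the median was 0.04. Of 75 cytochrome P450 genes, 1 was higher in polysomes and 6 in 80S monosomes (median -0.05), with 0 and 2 without replicate 2 and 1 and 2 without replicate 3. The lists of ATP synthase, cytochrome c oxidase, proton ATPase, CCT chaperonin, Mediator, Rab, tetraspanin, cuticle, glutathione S-transferase, heat shock, insulin or TOR pathway, serpin, Bearded or Enhancer of split, testis and mRNA element genes had at most 6 genes higher in polysomes and at most 5 in 80S monosomes each, with medians from -0.21 to 0.16. Of 13 cytochrome c oxidase genes, 4 were higher in 80S monosomes (30.8%) and 1 in polysomes (7.7%), with a median of -0.17. Of 13 ATP synthase genes, 3 were higher in 80S monosomes (23.1%) and 2 in polysomes (15.4%). Over all genes tested the shares were 12.8% and 12.7%.

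**Figure D5:**
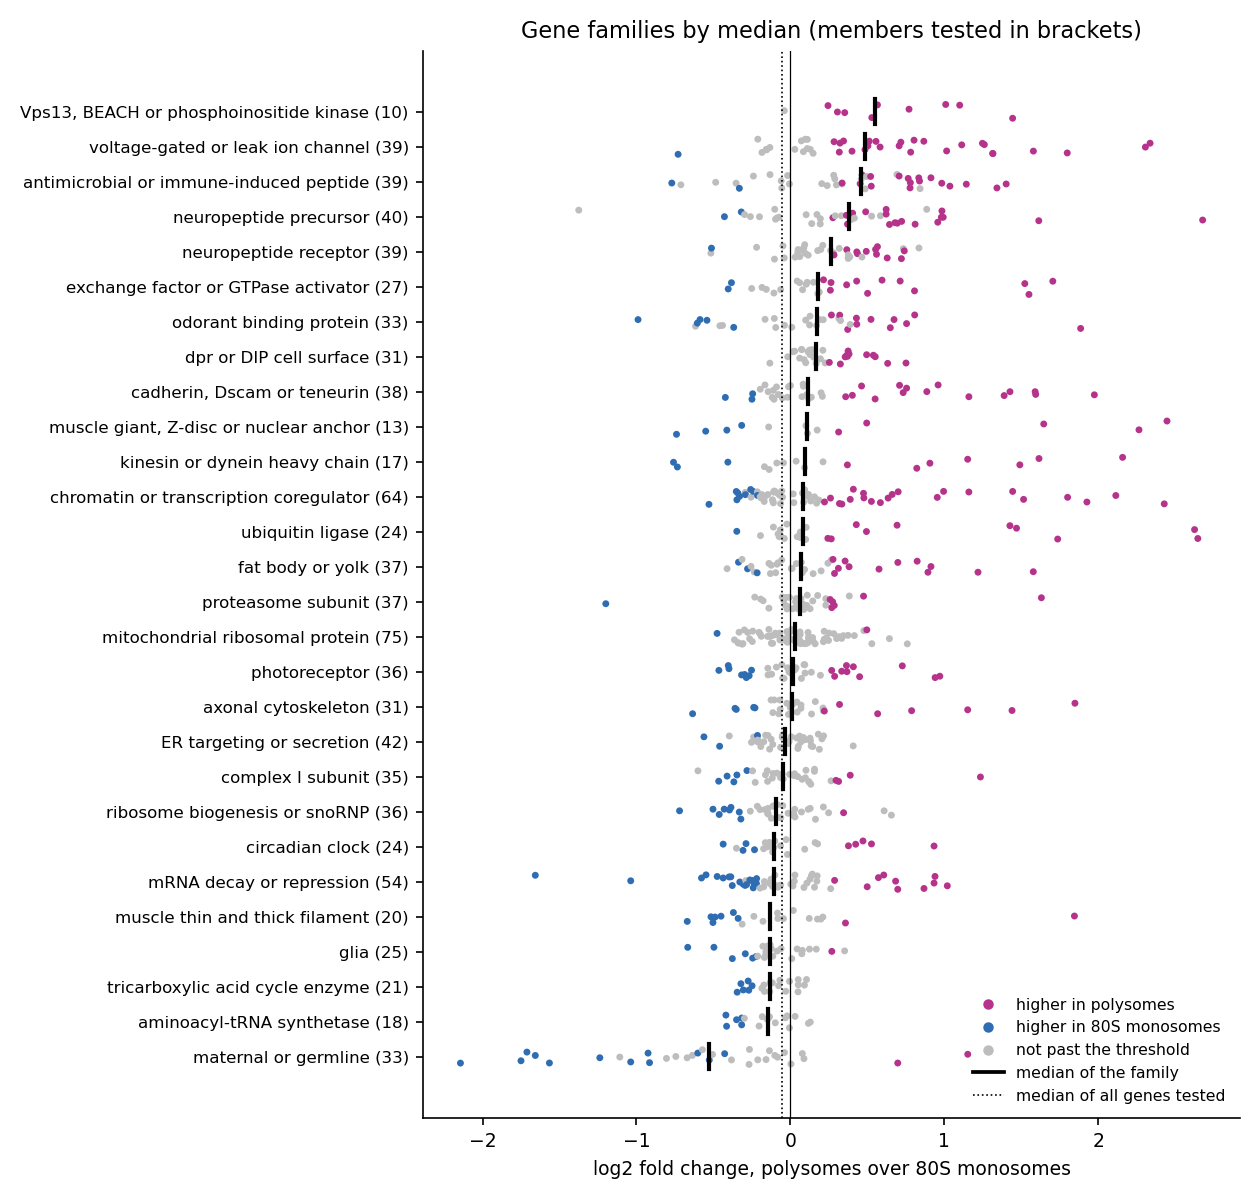
Log2 fold change of polysomes over 80S monosomes for each tested member of 28 gene lists, ordered by the list's median (black bar), with the number tested in brackets. Colours show genes past an adjusted p of 0.01, and the dotted line is the median of all genes tested, -0.05. Medians range from 0.55 for Vps13, BEACH and phosphoinositide kinase genes to -0.53 for maternal or germline genes.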

How the data were processed

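RNA of 80S monosomes and polysomes from fly heads was depleted of ribosomal RNA and sequenced from TruSeq Stranded libraries. Per the labels, the authors trimmed reads with Trimmomatic 0.33, aligned them with STAR 2.7.10a and counted them with featureCounts 2.0.1. Multi-mapped reads and reads in overlapping genes were split into fractions, so the deposited values are expected counts, of which 42.1% to 54.7% of the nonzero values per library were not whole (tolerance 0.001). This affects paralogs and overlapping genes. A table of transcripts was not used.

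Counts were rounded. Nuclear protein-coding genes (Ensembl BDGP6 annotation) were kept, filtered with filterByExpr (minimum count 10), scaled by TMM and tested with edgeR 4.0.16 in R 4.3.3 (quasi-likelihood, robust, replicate number as a block, 2 residual degrees of freedom, median prior 81.1, Benjamini-Hochberg adjustment over 10210 genes, threshold 0.01). The study does not state whether libraries of one number share a lysate. The numbers were taken as pairs because the comparison was set up as paired. Deviations from the fraction means correlated over genes at 0.51, 0.50 and 0.29 for the same number and at -0.43 to 0.09 otherwise. Deviations from a mean of 3 libraries sum to 0, which pulls the values for different numbers below 0 where those for the same number are positive. The labels do not say that replicates came from separate crosses, so p-values refer to the spread between these samples. With 2 residual degrees of freedom per gene against a median prior of 81.1, that spread was for most genes mostly shared across genes. A very small p is therefore no measure of how closely a gene's own 3 pairs agreed. Totals of 13555484 to 44096558 counts per library limit the precision of genes under 10 CPM most.

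In each direction the 15 genes of at least 10 CPM with the largest change in the same direction in all 3 pairs were named, leaving out genes of hand-written ribosomal protein, translation factor and synaptic lists, and in each list the 3 called members with the largest change in its main direction and 1 in the other, besides members that define a list's role. The members and lists were chosen with earlier results of these data known. Of 983 symbols written by hand, 969 matched, and the spelling of some was adjusted afterwards. Coordinates and coding lengths are from BDGP6.54, a later release than the one the authors used. The fit was tested on simulated data. Alternatives were DESeq2 1.42.0, other scalings and filters, all 9 libraries, no block and leaving out each replicate.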

Additional observations from a re-analysis of the deposited data

How the results depend on the processing

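Without the replicate block, 318 genes were higher in polysomes and 63 in 80S monosomes. In that fit the ion channel list had 14 and 0, the chromatin list 10 and 0, and the cadherin list 9 and 0. The dpr and DIP list had 2 and 0, the fat body list 2 and 0, and the glial list 0 and 1. DESeq2 with the replicate block gave 851 genes higher in 80S monosomes, 39.0% of its calls against 50.2%. Leaving out 1 replicate gave 931 to 1447 genes higher in polysomes and 639 to 1177 in 80S monosomes, which has fewer samples by construction. For DESeq2 and the block the cause was not tested. The other counts stayed within 1.5 times, and no call had the opposite direction in any setting. Relative log expression factors moved the median of all genes from -0.05 to -0.01, and an adjusted p of 0.05 gave 1590 and 1913 genes. Of 49 list medians, 15 changed sign in a setting, and these lay between -0.21 and 0.03 in the fit reported. Among the genes followed, Pi3K68D, which was not called, had a log2 fold change of -0.04, which ranged from -0.075 without replicate 3 to 0.037 without replicate 1. Genes under 10 CPM, among them most germline and several peptide genes, rest on few counts.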

Other observations

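Gene groups that no list held were looked at after the values had been seen, and no test was run over them. Genes whose symbols begin with Muc, which encode large glycosylated secreted proteins, had 6 tested members, 4 higher in polysomes and 1 in 80S monosomes, and the median log2 fold change of the group was 1.60. All had a mean of 7.45 CPM or less, and the largest differences were 2.35 for Muc14A, 2.33 for Muc12Ea and 2.30 for Muc96D. Of the chemosensory ionotropic receptors, at a mean of 8.20 CPM or less, 3 of 17 were higher in polysomes and 1 in 80S monosomes (median 0.21). Of 11 odorant receptors (median 0.02) and 7 gustatory receptors (median -0.20), at 4.39 CPM or less and 2.22 CPM or less, edgeR called 0 of either. At an unadjusted p under 0.05 it gave 1 odorant and 3 gustatory receptors, all on the 80S side, and DESeq2 gave 0. UDP-glycosyltransferases, which conjugate odorants and toxins, had 4 of 21 genes higher in polysomes and 3 in 80S monosomes (median -0.08). Among all genes tested, 12.7% were higher in polysomes and 12.8% in 80S monosomes.

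Genes of cell division stood near the 80S end at low levels, beside the kinetochore gene Cenp-C. Zwilch, a part of the kinetochore checkpoint, had 1.29, 1.70 and 1.79 CPM in 80S monosomes and 0.539, 0.408 and 0.584 CPM in polysomes (log2 fold change -1.70, SE 0.35, adjusted p = 4.84e-05). Ndc80, which binds microtubules at the kinetochore, gave -1.06, and its call was lost without replicate 1, without replicate 3 and with DESeq2. The mitotic kinase gene polo had 5.62, 6.50 and 11.8 CPM and 1.797, 4.19 and 4.72 CPM (log2 fold change -1.10, SE 0.17, adjusted p = 6.42e-08), and the cytokinesis kinesin gene pav gave -1.16. Incenp (-1.04) and the spindle pole gene asp (-0.94) were also higher in 80S monosomes. The phosphatase gene stg, which starts mitosis, did not pass (-0.10, adjusted p = 0.596). These genes were chosen for their position, so that their number is no measure of the class.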
